A study of Arabidopsis thaliana with 2 samples.

Results

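AT1G06000, UGT78D1, UGT78D2, UGT79B1 and DFR, which decorate flavonoids with sugars or commit them to the anthocyanin branch, were followed on an array of axr4-2 plants and an array of wild-type Col0 plants. They were selected by name on their ratios of axr4-2 over wild type on these arrays, and are 5 of the 13356 genes that could be named on the ATH1 array, an Affymetrix platform that reads each transcript with a set of short probes. Because they were chosen by these ratios, the ratios are given as a description. The axr4-2 line is an auxin-resistant mutant in the Col0 background, and it was set against unmutated Col0; both were whole plants kept under 24 h of light per day at 22 °C, with a growth stage labelled 1.02 for both and the age otherwise uncertain. The labels state no treatment and do not say how many plants were pooled. Each group has 1 array, so no difference below has a replicate check, an SD or a p-value. A gene called higher or lower had the higher or lower value in axr4-2. In whole-plant RNA fewer cells of a type and less RNA per cell cannot be told apart.

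Flavonoids are made from phenylalanine through chalcones and dihydroflavonols, at which point the pathway divides. Flavonol synthase leads to the flavonols kaempferol and quercetin, whereas dihydroflavonol reductase leads to anthocyanins and proanthocyanidins. UDP-glycosyltransferases then attach sugars, which make the compounds soluble and allow storage in the vacuole. In Arabidopsis, flavonols are also known as modulators of auxin transport, while AXR4 acts in the endoplasmic reticulum and without it the influx carrier AUX1 fails to reach the cell surface. Of the 5 genes, AT1G06000 (also called UGT89C1) encodes the enzyme that puts rhamnose on the A ring of flavonols, and UGT78D1 the one that puts rhamnose on their C ring. UGT78D2 puts glucose on the C ring of both flavonols and anthocyanidins, so it serves both branches. DFR encodes dihydroflavonol reductase, and UGT79B1 extends the sugar of anthocyanins with xylose.

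The values are deposited linear intensities, and each of the 5 genes was read by a single probe set. Both arrays had the same trimmed mean, 100, with medians of 39.5 for axr4-2 and 42.7 for wild type. A gene was counted as measured when the higher of its 2 intensities reached the median of its array, which 6381 genes did. Ratios are log2 of axr4-2 over wild type, and 1 or -1 marks a 2-fold difference. The median log2 ratio of the measured genes was -0.04. Their SD was 0.41. The spread expected of 1 probe set was also 0.41, as estimated from 30 genes with a measured pair of probe sets. Both probe sets of a pair were read on the same 2 arrays, so this spread does not cover variation between plants or RNA samples. The 27 Bacillus and tryptophan-gene control probe sets reached at most 18.1 in axr4-2 and 27.1 in wild type, and all 10 intensities of the 5 genes lay above those limits.

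AT1G06000, the flavonol rhamnosyltransferase of the A ring, had an intensity of 224.2 in axr4-2 and 39.3 in wild type. This was 5.70-fold higher in axr4-2, a log2 ratio of 2.51, and no other measured gene on these arrays had a ratio as high. The gene ranked 1363 of 13356 by intensity in axr4-2 and 6315 in wild type. The wild-type intensity was thus close to the middle of all named genes and below the array median, so that AT1G06000 counted as measured through the axr4-2 array alone. Among the 500 measured genes nearest to it in mean log2 intensity, none had a ratio as high, the highest of them being 1.31. Their ratios had an SD of 0.34. That mean holds the axr4-2 value, so the match depended partly on the ratio by which the gene was chosen. Around the dimmer UGT79B1, whose wild-type intensity was 43.4, the SD of 500 genes was 0.60 and the highest ratio 1.79. Nothing is therefore read from this standing.

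UGT78D1, the flavonol rhamnosyltransferase of the C ring, had an intensity of 108.7 in axr4-2 and 40.2 in wild type. It was 2.70-fold higher in axr4-2, a log2 ratio of 1.44, with 14 measured genes above it. Its rank was 2879 in axr4-2 and 6227 in wild type, where it lay below the median and beside AT1G06000. As with AT1G06000, it counted as measured through the axr4-2 array alone. One of the 500 genes nearest in intensity had a ratio at least as high. This match, too, holds the axr4-2 value, and nothing is read from it. The rhamnosyltransferase genes for both flavonol positions were thus the ones past a 2-fold difference among the 5.

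UGT78D2, the glucosyltransferase shared by flavonols and anthocyanidins, had an intensity of 173.0 in axr4-2 and 111.5 in wild type. It was 1.55-fold higher in axr4-2, a log2 ratio of 0.63, and it was above the median of both arrays. Its rank was 1858 in axr4-2 and 2872 in wild type. Of the 500 genes nearest in intensity, 15 had a ratio at least as high. Over all 6381 measured genes, UGT78D2 stood in place 267 from the top.

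DFR, the first gene of the anthocyanin branch, had an intensity of 116.7 in axr4-2 and 94.6 in wild type. The 1.23-fold difference is a log2 ratio of 0.30, smaller than the spread of 0.41. DFR ranked 2684 in axr4-2 and 3390 in wild type, and 75 of the 500 genes nearest in intensity had a ratio at least as high.

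UGT79B1, the anthocyanin xylosyltransferase, was the member whose intensity was lower in axr4-2, with 30.8 in axr4-2 and 43.4 in wild type. The log2 ratio was -0.49, and wild type was 1.41-fold above axr4-2. It ranked 6750 in axr4-2 and 5937 in wild type. UGT79B1 was the dimmest of the 5 by rank on the axr4-2 array and only just passed the limit for a measured gene, through the wild-type array alone. At that brightness a gene counts as measured only if its values differ, and 170 of the 500 genes nearest in intensity had a ratio as low or lower. The median ratio of those 500 genes was itself -0.22, and their SD was 0.60.

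**Figure D1:**
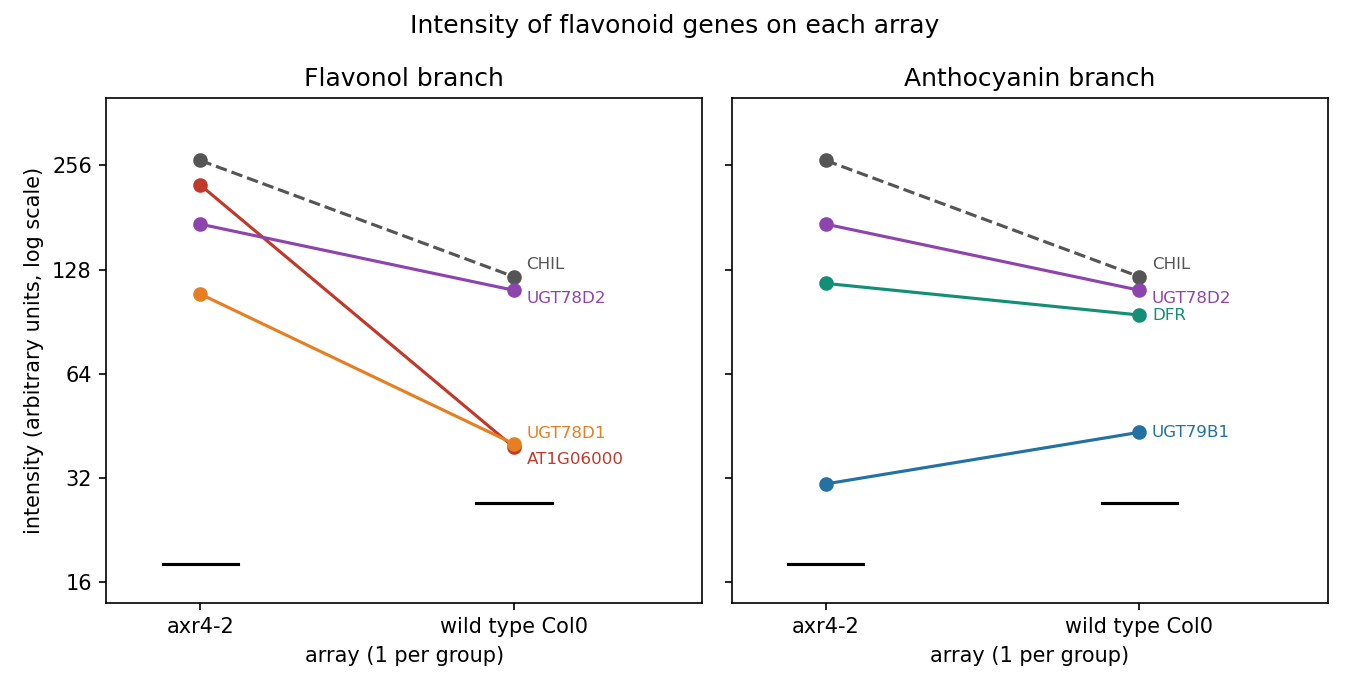
Intensity of each gene (log scale) on the axr4-2 array and the wild-type array, with flavonol branch genes on the left and anthocyanin branch genes on the right; UGT78D2 serves both branches and CHIL, drawn dashed, stands before the division. Lines join the 2 values of 1 gene, short black bars mark the brightest Bacillus control probe set (18.1 in axr4-2 and 27.1 in wild type), and the slopes, not the heights, are to be compared: AT1G06000 and UGT78D1 are steepest, and UGT79B1 slopes the other way.

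In the flavonol branch, listed by size and not by order of the steps, the log2 ratio was 2.51 for rhamnose on the A ring. It was 1.44 for rhamnose on the C ring and 0.63 for glucose on the C ring. Read along the anthocyanin branch, it was 0.30 for DFR, 0.63 for the shared UGT78D2 and -0.49 for UGT79B1. The gap in log2 ratio was 1.08 between AT1G06000 and UGT78D1, 0.80 between UGT78D1 and UGT78D2 and 0.33 between UGT78D2 and DFR. A gap holds the scatter of both ratios, so its spread is wider than the 0.41 of 1 probe set. The gap of 0.33 was below even 0.41. UGT78D2 exceeded UGT79B1 by 1.13 and AT1G06000 exceeded UGT79B1 by 3.01. Of the 5 genes, 2 (AT1G06000 and UGT78D1) had at least a 2-fold higher value in axr4-2, against 0.940% of all measured genes, and none had at least a 2-fold lower one, against 1.47%, so that 2.41% of all measured genes differed either way. The log2 ratio was above 0 for 4 of the 5, against 45.7% of all measured genes, and below 0 for 1, against 54.1%. Since the genes were chosen with these ratios known, nothing is read from these counts.

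**Figure D2:**
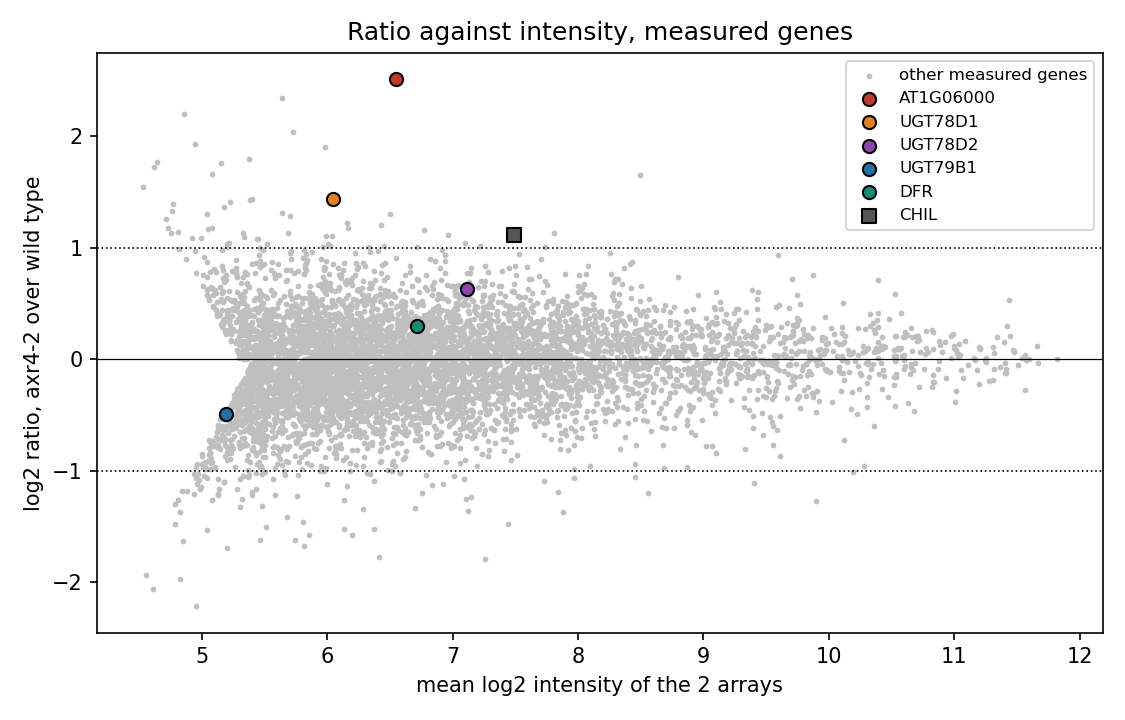
Log2 ratio of axr4-2 over wild type against the mean log2 intensity of the 2 arrays, for the 6381 measured genes (grey) with the 5 genes and CHIL in colour; dotted lines mark a 2-fold difference. AT1G06000 is the highest point at 2.51, UGT78D1 and CHIL lie above the upper dotted line, and UGT79B1 lies at the dim edge that the filter cuts.

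The other steps of the pathway could be read only in part. The lists for shared steps, the flavonol branch, the anthocyanin branch and the proanthocyanidin branch hold 29 genes, of which 11 could be named and 6 were measured; 5 of these 6 are the genes above. The remaining one is CHIL, which encodes a chalcone isomerase-like protein that enhances flavonoid production before the branches divide. CHIL had an intensity of 264.1 in axr4-2 and 122 in wild type, 2.16-fold higher with a log2 ratio of 1.11. It was above the median of both arrays, and none of the 500 genes nearest in intensity had a ratio as high, the highest being 0.94. CHIL was not among the 5 genes, but the list that holds it was drawn up with earlier results of these data known, and it has no replicate check.

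Further listed genes of the branches were too dim to compare. UGT79B6, whose enzyme extends the sugar of flavonols with glucose, had 1.4 in axr4-2 and 3.5 in wild type. UGT78D3, a close relative that adds arabinose to flavonols, had 0.8 in axr4-2 and 2.2 in wild type. In the anthocyanin branch, AT4G14090 (UGT75C1), the anthocyanin glucosyltransferase of the A ring, had 15.1 in axr4-2 and 2.4 in wild type, and AT5MAT, a malonyltransferase of anthocyanins, had 11.8 in axr4-2 and 10.4 in wild type. BAN, the reductase that opens the proanthocyanidin branch of the seed coat, had 1.7 in axr4-2 and 1.2 in wild type. On either array these values were under the limit set by the Bacillus control probe sets, so no ratio is given.

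Genes before and beside the flavonoid pathway were mostly not analysed here. None of the 8 listed phenylpropanoid entry genes, the 4 UDP-rhamnose supply genes, the 22 flavonoid regulators or the 13 auxin transport genes could be named, AXR4 included. The mutant label was therefore not checked against its own transcript. In the monolignol branch, which draws on the same precursors, HCT had 750.5 in axr4-2 and 614.2 in wild type, which gave a log2 ratio of 0.29. In the sinapate ester branch, UGT84A3 had 36.7 in axr4-2 and 41.7 in wild type, just below the limit for a measured gene.

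Other UDP-glycosyltransferases did not share one direction. Genes of the family were found by a systematic UGT name in RefSeq. Those without such a name there, such as AT4G14090, were left out, and AT1G06000 was added as a member. Besides the members, 48 genes with such a name were found and 21 were measured, with a median log2 ratio of 0.01. Of these 21, 11 were above 0 and 9 below 0, against 45.7% and 54.1% of all measured genes. Past a 2-fold difference was 1 of the 21, against 2.41% of all measured genes. It was UGT76B1, a glucosyltransferase of immune signalling compounds (78.7 in axr4-2 and 31.7 in wild type, 1.31). UGT72E2, which glucosylates monolignols, followed at 0.96, while UGT85A5 and UGT85A2 were lowest at -0.81 and -0.82. In the order of these genes together with the glycosyltransferase members, 25 measured genes, AT1G06000 was the highest and UGT78D1 came next. UGT78D2 was in place 5 and UGT79B1 in place 22. The places of the members follow from the ratios they were chosen with.

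**Figure D3:**
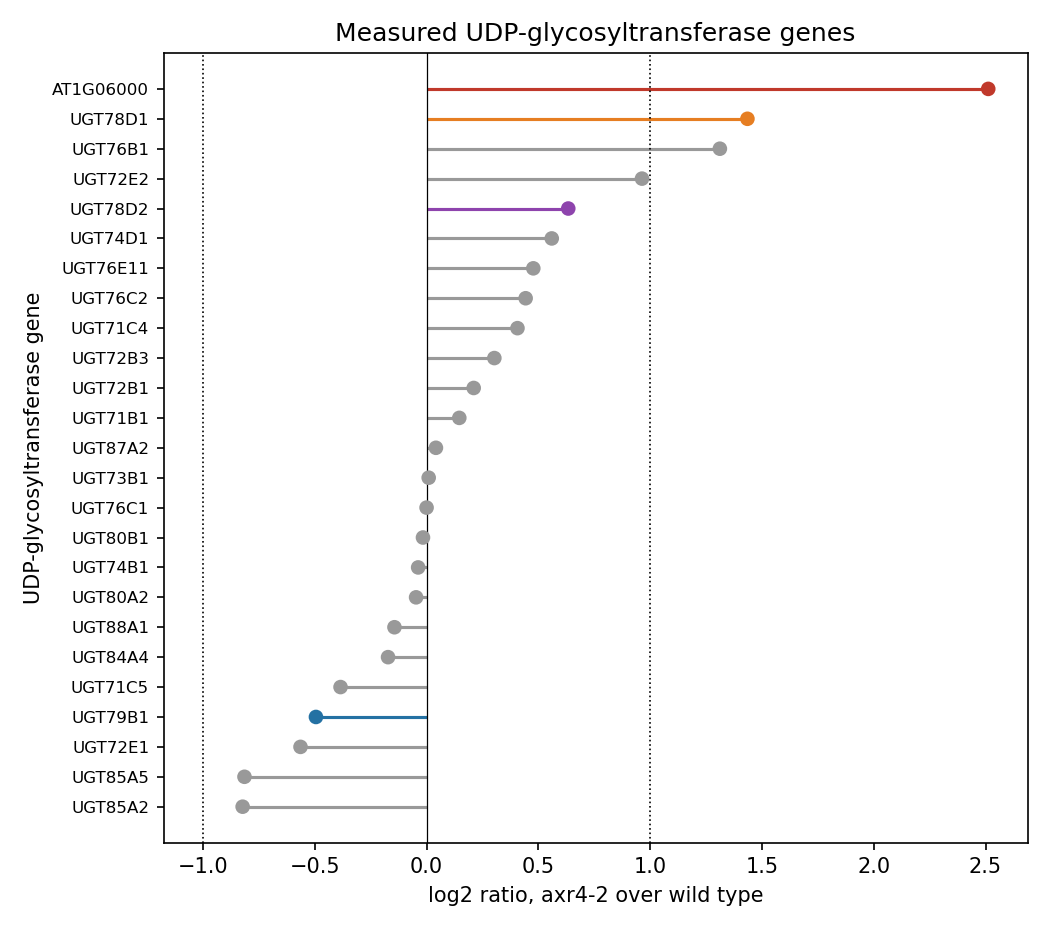
Log2 ratio of axr4-2 over wild type for 25 measured UDP-glycosyltransferase genes, from highest to lowest. Apart from AT1G06000, they were found by a systematic UGT name. The 4 glycosyltransferases among the 5 genes are in colour and the others in grey. Dotted lines mark a 2-fold difference. AT1G06000 (2.51) and UGT78D1 (1.44) head the order, UGT78D2 (0.63) stands in place 5 and UGT79B1 (-0.49) in place 22.

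Few genes next to the 5 could be read. In the RefSeq gene order of TAIR10.1, UGT78D3 and AT5G17040 directly precede UGT78D2. AT5G17040 had 2.6 in axr4-2 and 2.5 in wild type, so UGT78D2 was the one gene of this run of 3 that was detected above the control probe sets. AT1G06010, next to AT1G06000, had 94.6 in axr4-2 and 61.7 in wild type, and its log2 ratio was 0.62. AT1G30540, next to UGT78D1, had 44.8 in axr4-2 and 70.7 in wild type, and its log2 ratio was -0.66, opposite in direction to UGT78D1. Of the 10 genes adjacent to the members, 4 could be named and these 2 were measured.

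Genes with the most similar pair of intensities were looked up by distance in log2 units over the 2 arrays. AT1G06000 had no close match: the nearest were AT1G60590 (142.2 in axr4-2 and 57.5 in wild type), at a distance of 0.86, and the chloroplast gene psbN (122.5 in axr4-2 and 32.7 in wild type), at 0.91. UGT78D1 was nearest to AT4G22510 (109.1 in axr4-2 and 46.8 in wild type, distance 0.22) and AT5G51570 (96.5 in axr4-2 and 44.7 in wild type, distance 0.23). The nearest gene lay within 0.05 for the other 3: AT1G64880 for UGT78D2 (distance 0.04), the expansin gene EXPA15 for DFR (0.02) and AT2G13510 for UGT79B1 (0.01). The next nearest were AT1G06550 for UGT78D2 (0.05), AT1G43860 for DFR (0.03) and AT2G14290 for UGT79B1 (0.03). Likeness over 2 arrays rests on 2 values per gene. The distance of AT1G06000 from other genes was set in part by the high ratio with which it was chosen.

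Some measures of the plants and the RNA differed between the arrays as well, while others were close. Of 5 green tissue markers, 3 were measured, with log2 ratios of 0.08 for RCA, 0.11 for PRK and 0.12 for LHCB4.1, and their summed intensity was 8923 in axr4-2 and 8302 in wild type. The root marker PYK10 was at 0.01. Of 3 seed markers, PAP85, a seed storage protein gene, could be named, and had 19.4 in axr4-2 and 56 in wild type. Its log2 ratio was -1.53, with 13 measured genes below it. PAP85 counted as measured through the wild-type array alone, and its axr4-2 value was close to the brightest control of 18.1. The ratio of 3′ over 5′ signal, which is higher in degraded RNA, was 2.12 for actin in axr4-2 against 3.23 in wild type. For ubiquitin it was 1.81 in axr4-2 and 2.26 in wild type, and for GAPDH 1.05 in axr4-2 and 1.03 in wild type. An older set of the same controls gave 1.27 in axr4-2 and 2.14 in wild type for GAPDH, and 2.36 in axr4-2 and 3.71 in wild type for ubiquitin. Older actin ran the other way, with 7.78 in axr4-2 and 4.08 in wild type. The part of these differences in the ratios of the flavonoid genes was not tested.

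The ratios of the 5 genes kept their signs under each processing setting tried. AT1G06000 ranged from 2.12 to 2.57 and UGT78D1 from 1.15 to 1.51, so both stayed past a 2-fold difference. UGT78D2 ranged from 0.54 to 0.67, DFR from 0.21 to 0.35 and UGT79B1 from -0.59 to -0.19. CHIL ranged from 1.02 to 1.15. UGT79B1 was nearest to 0 when the dependence of the ratio on intensity was removed.

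**Figure D4:**
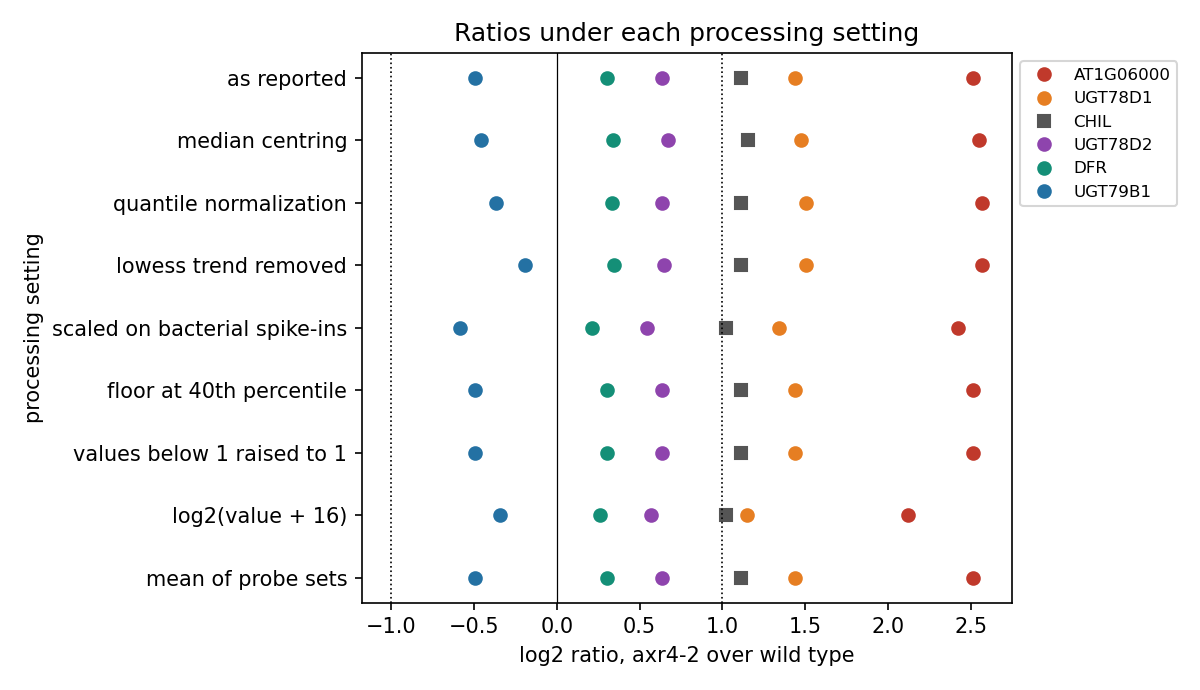
Log2 ratio of axr4-2 over wild type for the 5 genes and CHIL (square) as reported and under 8 other processing settings, 1 row each; dotted lines mark a 2-fold difference. AT1G06000, UGT78D1 and CHIL lie right of the upper dotted line in every row, and UGT79B1 lies left of 0 in every row, between -0.59 and -0.19.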

How the data were processed

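Total RNA was hybridised as biotin-labelled cRNA to 1-colour ATH1 arrays, 1 per group. The deposited values are linear intensities for 22810 probe sets; which software and background correction made them is not stated in the labels. Per the labels, mean scan background was 70.79 for axr4-2 and 80.02 for wild type. Precision is limited by the number of arrays. The platform annotation gave 1 gene for 13513 probe sets and several for 503, while 8794 are unnamed here; 13436 matched RefSeq TAIR10.1, used for names and gene order only. The brightest probe set stood for a gene, and values below the 25th percentile of their array (12 in axr4-2, 13.525 in wild type) were raised to it before log2 ratios were taken. Members and gene lists were chosen with earlier results of these data known. Named were the 5 members, the listed genes with a named probe set, the 2 nearest genes per member, and the 2 highest and 2 lowest other UDP-glycosyltransferases. Adjacent genes and AT5G17040 were added later. Promoter motifs were not analysed here. Simulated data with known changes were used to test the steps. The tools were numpy 2.4.6, scipy 1.17.1, pandas 2.3.3 and matplotlib 3.10.9, with statsmodels 0.14.6, under Python 3.11.15.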

Additional observations from a re-analysis of the deposited data

How the results depend on the processing

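Scaling on bacterial spike-in probe sets (mean log2 ratio 0.09) was chosen after seeing the data. Of 66 alternative ratios and list medians, 65 kept their sign and moved by less than 0.41, the spread estimated for 1 probe set. The members and CHIL have 1 probe set each and no value at a floor. Averaging probe sets and changing the floor therefore could not move their ratios or the list medians. With the filter as reported, the flavonol list median was the ratio of UGT78D1 and the anthocyanin list median that of DFR. The 66 values are therefore not separate checks. The exception was the flavonol list median of 1.44, taken over 3 measured genes that are all members chosen by their ratios. It became 0.63 with no filter on dim genes, since genes with both values at the floor then entered. Over all genes, the count with at least a 2-fold higher value, 60, was 107 after removal of the trend, 21 with log2(value + 16), 99 with no filter and 16 when the filter stood at the 75th percentile. The count for lower genes, 94, was 51, 34, 226 and 31 under these settings, and 147 with spike-in scaling; beyond the number of genes counted, the cause was not tested. With the 75th percentile filter, neither branch list kept 3 members, so no median is given. No paired analysis was possible because each group has 1 array, and no array could be left out. Signal over background limits the dim values: AT1G06000 (39.3) and UGT78D1 (40.2) in wild type stood against 27.1 for the brightest Bacillus control probe set, and these values are the denominators of both large folds. UGT79B1 had 30.8 in axr4-2 against a brightest control of 18.1.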
